A study of Mus musculus with 6 samples.

Results

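The constitutive proteasome subunits were taken as every protein-coding gene of the table named Psma, Psmb, Psmc or Psmd followed by a number, without the inducible subunits Psmb8, Psmb9 and Psmb10. This gave 36 genes of the 54532 in the table, 16 of the 20S core (8 Psma and 8 Psmb genes) and 20 of the 19S cap (6 Psmc and 14 Psmd genes). The proteasome degrades proteins that carry ubiquitin. Its 20S core is a barrel in which the alpha subunits encoded by Psma genes form the outer rings and gate the entrance, and the beta subunits encoded by Psmb genes form the inner rings that hold the proteolytic sites. The 19S cap binds ubiquitin chains, removes them and threads the unfolded substrate into the core, which it does with the ATPases encoded by Psmc genes and the other subunits encoded by Psmd genes. In macrophages this machinery also makes peptides for MHC class I, and interferon exchanges the catalytic beta subunits for inducible ones.

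The sequenced RNA came from BMDMs, which are macrophages differentiated in a dish from bone marrow, of C57BL/6 mice aged 32 to 34 weeks. The XWT group (3 libraries) had the genotype Xbp1FL/FL, with an intact gene flanked by recombination sites. The XKO group (3 libraries) had the genotype Xbp1ΔMf, a loss of Xbp1 in macrophages by its label, and no driver of the deletion is named there. Both groups were primed with lipopolysaccharide (LPS) and then kept for 48 h in the conditioned medium of wild-type primary hepatocytes, so no group was free of LPS or of hepatocyte products. The protein made from Xbp1 is a transcriptional activator in the response to unfolded proteins, which raises genes of protein folding and degradation at the endoplasmic reticulum. The comparison asks what the loss of Xbp1 does to the macrophage transcripts, here those of the machine that degrades proteins in the cytosol and nucleus. Nothing in the labels tells whether the 3 libraries of a genotype are separate mice or cultures, and p-values therefore measure a spread that may be technical.

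The libraries held 28354866 to 30891729 counts. Xbp1 stood at 159, 157 and 132 CPM (counts scaled to equal library depth) in the XWT libraries and at 76.8, 79.4 and 76.5 CPM in the XKO libraries, a log2 fold change of -0.94 ± 0.0769 (SE, edgeR adjusted p = 1.93e-06). Reads of all exons enter this value, so it checks the deletion only in part. Macrophage markers were present (7 of 7 tested, summed level 38888 to 47102 CPM in XWT and 24642 to 26285 CPM in XKO), and of these Lyz2 was called lower. The highest single value in this list was 34344 CPM, so 1 gene can rule the sum. The median log2 fold change of the 7 markers was -0.16. Markers of fibroblasts and stroma summed to 735 to 822 CPM in XWT and 67.5 to 82.8 CPM in XKO (10 of 10 tested lower), and those of neutrophils to 30.8 to 39.8 CPM in XWT and 61.5 to 65.1 CPM in XKO (7 of 8 tested higher). All 5 hepatocyte markers were at 0, where 3 counts, the most that a count of 0 allows, are 0.0960 to 0.111 CPM. T, NK and B cell markers summed to at most 0.416 CPM, with Cd3e and Ncr1 at 0, and dendritic cell markers to 0.943 to 1.71 CPM. In bulk RNA, fewer cells of a type and less RNA per cell cannot be told apart. The part of these other cells in the proteasome values was not tested.

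The transcripts of the constitutive proteasome were close to level between the groups. Of the 36 genes, 35 passed the filter on low counts. Psmc6, an ATPase subunit of the cap, rose in XKO (edgeR quasi-likelihood test, Benjamini-Hochberg adjusted p under 0.05 over all 14333 tested genes), 0 fell and 34 did not pass the test. Over all tested genes 14.0% were called, 6.00% higher and 7.99% lower in XKO. At an unadjusted p under 0.05 the members numbered 5 of 35 (Psma7, Psmb4, Psmc3, Psmc6 and Psmd9), against 30.8% of all tested genes. DESeq2 and limma-voom likewise gave 1 member higher and 0 lower, and limma-voom with quality weights per library gave 1 higher and 2 lower (10.2% of all tested genes lower). The median log2 fold change was -0.012 over the members, -0.040 over the 20S core and -0.0088 over the 19S cap, beside 0.0014 over all tested genes.

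The intervals around these small differences were narrow. The 95% interval of the log2 fold change lay wholly inside a 1.5-fold change in either direction for 34 of the 35 members (65.0% of all tested genes), the exception being the rarely read Psma8. The median size of the difference, regardless of sign, was 0.074 on the log2 scale for the members and 0.17 for all tested genes, and 21 of 35 members lay within 0.1 of no change (31.4% of all tested genes). The 2 sets were not matched for level: 34 of the 35 members but only 8669 of the 14333 tested genes reached 10 CPM. The median standard error was 0.0699 for the members and 0.103 for all tested genes. These shares therefore do not show that the members were more stable than genes of like level. In 10 of 35 members no XKO value fell within the XWT range, nor the reverse, against 36.2% of all tested genes. The sign of such small differences depended on the scaling of the libraries: 13 members had an estimate above 0 and 22 below 0 as reported, and 23 above and 12 below when only the library totals were used, a scaling that also moved the median of all genes to 0.069. In counts simulated from these libraries (14097 genes), 42% of 50 genes changed 1.25-fold and 82% of 50 changed 1.5-fold were recovered. Fewer genes were changed there than were called in the data, and the changed genes were a random draw rather than the members. The simulation also gave both groups the same spread per gene, whereas in the data XWT was the wider group. The shares therefore need not carry over to the proteasome genes.

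**Figure D1:**
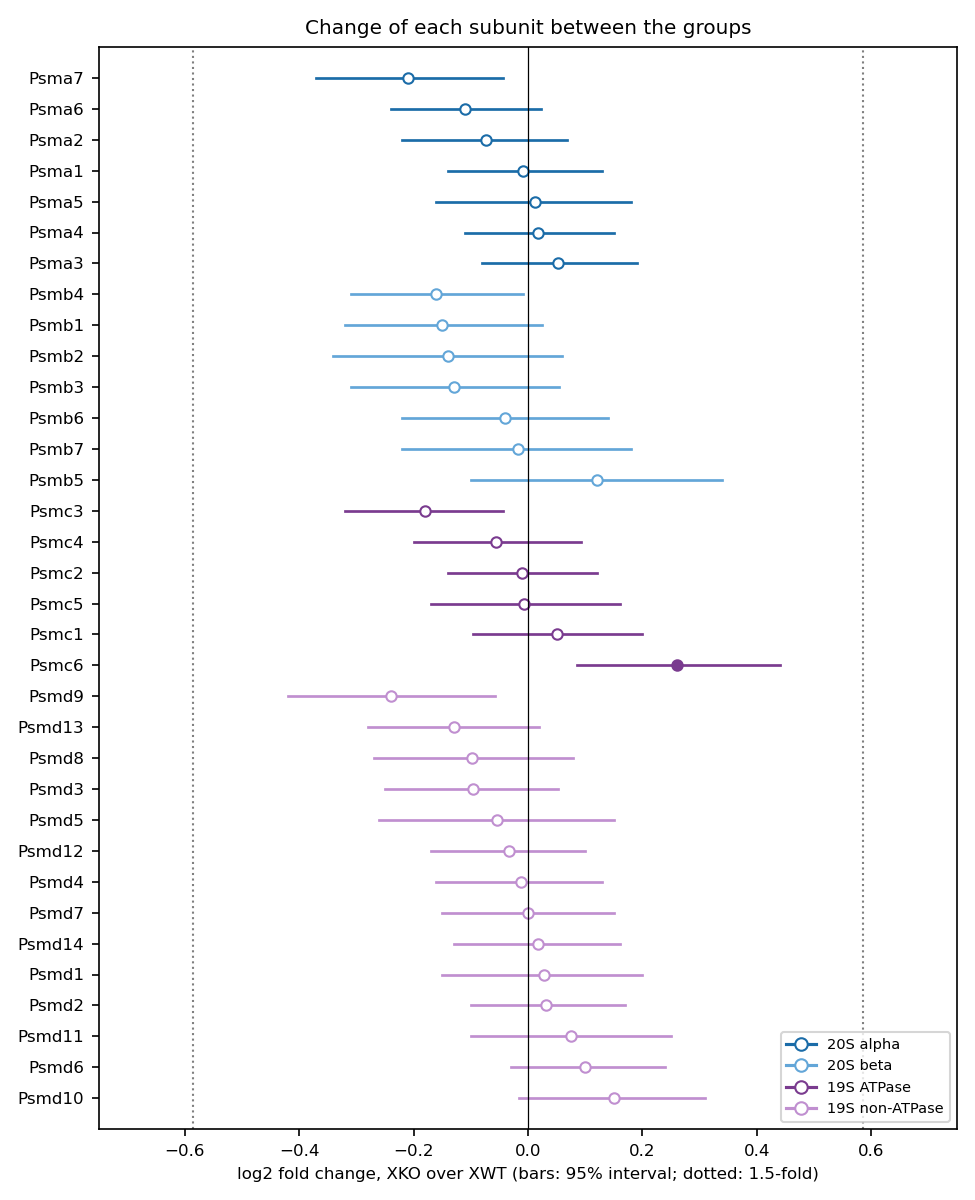
Log2 fold change of XKO over XWT (x axis) for the 34 tested subunits other than Psma8, grouped by place in the complex and sorted by value. Circles are edgeR estimates, bars 95% intervals, the filled circle a call at an adjusted p under 0.05, and dotted lines a 1.5-fold change: all bars lie between the dotted lines, and Psmc6 is the filled one.

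The sequences before the start sites of the members were searched for short motifs of factors tied to this pathway, since proteasome genes are known targets of NFE2L1, which is made at the endoplasmic reticulum and binds antioxidant response elements together with small MAF proteins. RefSeq (GRCm38.p6) gave 31 promoters for 29 members, and Psma8, Psmb1, Psmb2, Psmb7, Psmc3, Psmd3 and Psmd7 were not matched. In the 250 bases before the start, on both strands, the core TGANNNNGC was found in 13 of the 31 (41.9%, and 35.2% of all 32851 promoters) and its stricter form TGACNNNGC in 5 (16.1%, and 10.2% of all), every match of the stricter form being one of the looser too. The CCAAT box was found in 12 (38.7%, and 33.8% of all) and the letters ACGT, the core bound by XBP1 and other bZIP factors, in 12 (38.7%, and 26.9% of all). The longer TGACGTG of the unfolded protein response element, which contains ACGT, was found in 1 promoter, that of Psma1 (3.23%, and 1.65% of all). The stricter matches in 2 catalytic subunits, the called ATPase gene and a lid subunit are shown, and TGACGTG in Psma1, each in capitals. They are 5′ to 3′ on the strand of the gene and end before the earliest annotated start:
Psmb5, chr14:54618023-54618082, minus strand: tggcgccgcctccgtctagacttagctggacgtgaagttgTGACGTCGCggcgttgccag
Psmb6, chr11:70525308-70525356, plus strand: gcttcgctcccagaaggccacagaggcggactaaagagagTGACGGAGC
Psmc6, chr14:45329574-45329645, plus strand: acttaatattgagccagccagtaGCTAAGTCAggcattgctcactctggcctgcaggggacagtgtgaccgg
Psmd12, chr11:107479278-107479329, plus strand: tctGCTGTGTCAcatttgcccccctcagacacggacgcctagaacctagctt
Psma1, chr7:114276230-114276316, minus strand: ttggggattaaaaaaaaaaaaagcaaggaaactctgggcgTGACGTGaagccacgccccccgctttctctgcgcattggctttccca
Other matches of the searched motifs within these sequences are left in small letters. Distances are counted from the RefSeq start, which can differ from the earliest annotated start. In Psmb5 and Psmb6 the match ended 39 and 1 bases before the RefSeq start. In Psmc6 and Psmd12 it was on the other strand and ended 219 and 239 bases before that start, and in Psma1 it ended 154 bases before it. The fifth stricter match was that of Psmd9, which ended 23 bases before the RefSeq start. A match is a description of the letters and not a measured binding site.

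The alpha subunits of the 20S core, which gate the barrel and dock the cap, included no called gene (edgeR), and Psma7 alone had an unadjusted p under 0.05. Psma7 had the lowest estimate of them. The gene (ENSMUSG00000027566, chr2:180036374-180042433, minus strand) stood at 128, 126 and 107 CPM in XWT 1 to 3 and at 102, 105 and 106 CPM in XKO 1 to 3. All XKO values were below all XWT values, but XWT 3 lay next to XKO 3. The log2 fold change was -0.21 ± 0.0754 (SE, 95% interval -0.37 to -0.044, edgeR adjusted p = 0.0843). Without XWT 3 it was -0.29 and passed the test (adjusted p = 0.00321), as it did with no filter (0.0487, where 6.08% of all genes were lower) and with quality weights (0.0264). Over all tested genes 14.8% were lower without XWT 3, against 7.99% with all libraries.

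Psma6 was next lowest at -0.11, with 132, 131 and 124 CPM in XWT and 121, 116 and 120 CPM in XKO, and did not pass the test (adjusted p = 0.245). Its groups did not overlap, and the gap between them was small. Psma1, Psma2, Psma3, Psma4 and Psma5 had log2 fold changes of -0.0086, -0.074, 0.053, 0.018 and 0.012. The tightest member over all 6 libraries was Psma4, between 88.7 and 94.0 CPM. Psma3 stayed within 68.3 to 70.4 CPM in XWT and 71.3 to 73.0 CPM in XKO.

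Psma8 encodes an alpha subunit of the testis that takes the place of Psma7 in germ cells. It had the highest estimate of the alpha genes and few reads. It was read 44, 21 and 50 times in XWT 1 to 3 and 53, 61 and 53 times in XKO 1 to 3. XWT 2 stood apart below the others, and the log2 fold change of 0.46 (95% interval -0.18 to 1.10, edgeR adjusted p = 0.315) became 0.16 without it. Because Psma8 and Psma7 are close paralogs and the counting rule is unknown, the few reads of Psma8 are uncertain. Psmb11, the beta subunit of the thymus, had 1 read in XWT 1 and none in the other libraries, where 3 counts, the most that a count of 0 allows, are 0.0960 to 0.101 CPM. It was left out of the test by the filter.

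**Figure D2:**
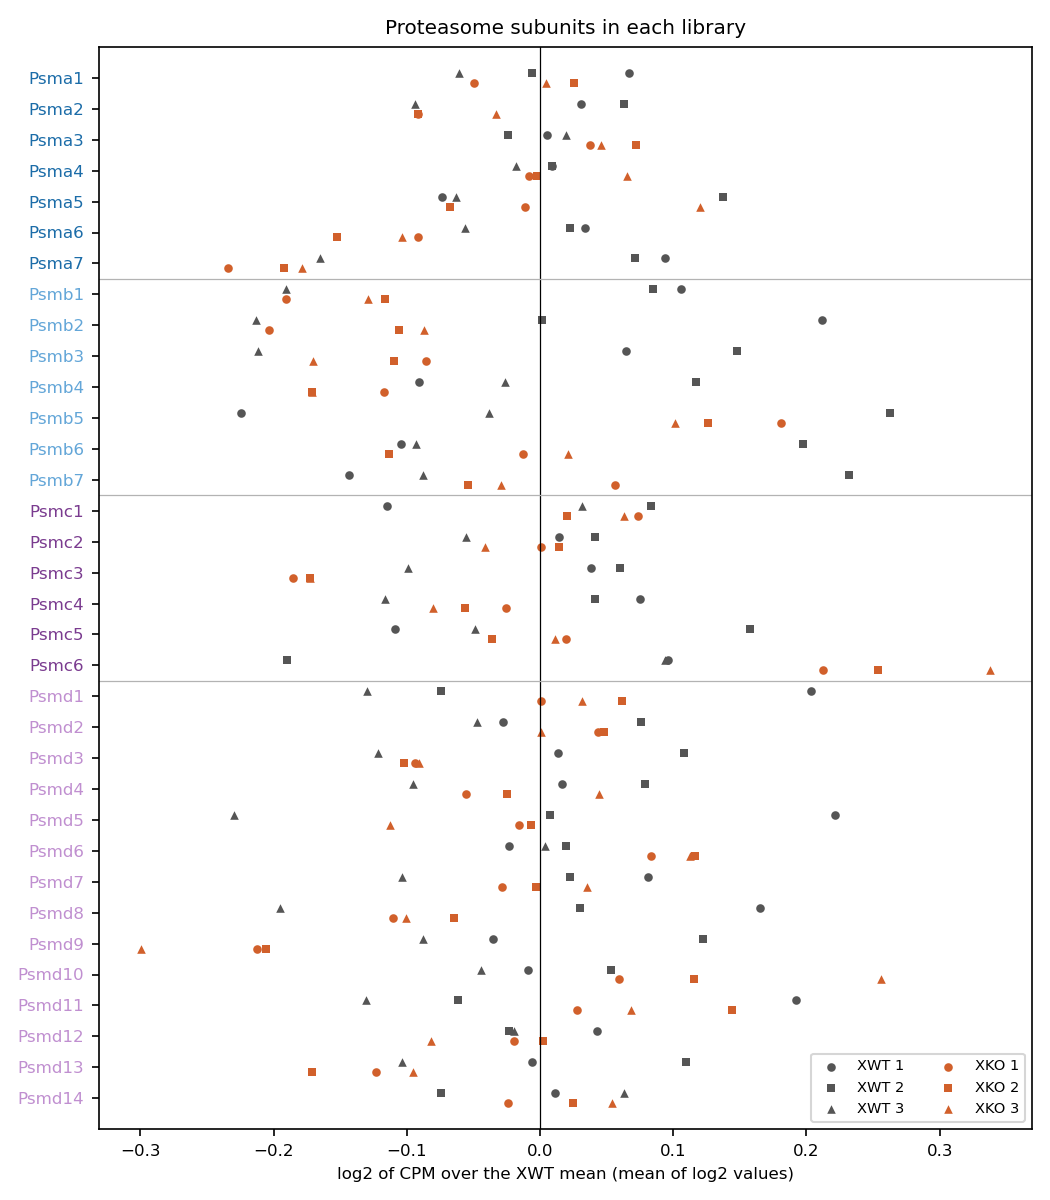
Level of 34 subunits (rows) in each of the 6 libraries, as the log2 of the CPM minus the mean of the XWT log2 values (x axis). Grey symbols are XWT and orange symbols XKO libraries 1 to 3. The XKO symbols of a gene mostly sit closer together than its XWT symbols, which lie around 0 by construction.

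The beta subunits, which include the proteolytic ones, had 6 of 7 tested members below 0, a median of -0.13 and 0 calls by edgeR, DESeq2 or limma-voom (1, Psmb4, at an unadjusted p under 0.05). Psmb1, Psmb2 and Psmb3, which carry no active site, had log2 fold changes of -0.15, -0.14 and -0.13, and over the 16 alternatives these stayed below 0. In each of them XWT 3 lay below the lowest XKO library, with 114, 71.2 and 65.4 CPM, while XWT 1 and XWT 2 lay above every XKO library. Without XWT 3 all 3 passed the test, at -0.24, -0.24 and -0.23 (adjusted p = 0.00823, 0.0295 and 0.0179). In that setting 14.8% of all tested genes were called lower, against 7.99% with all libraries. Psmb4, also without an active site, stood at 110, 127 and 115 CPM in XWT and 108, 104 and 104 CPM in XKO. Its groups did not overlap, with a log2 fold change of -0.16 ± 0.0696 (SE, edgeR adjusted p = 0.14).

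The 3 catalytic subunits of the constitutive core did not pass the test. Psmb5 carries the chymotrypsin-like site that proteasome inhibitors bind. The gene (chr14:54614119-54618022, minus strand, in which the table also places the microRNA gene Mir686) stood at 77.8, 109 and 88.5 CPM in XWT 1 to 3 and at 103, 99.2 and 97.5 CPM in XKO 1 to 3. The XWT libraries lay on both sides of the XKO libraries. The log2 fold change was 0.12 ± 0.101 (SE, 95% interval -0.10 to 0.34, edgeR adjusted p = 0.455). It was called higher without XWT 2 (0.26, adjusted p = 0.0388) and with trends of gene length and GC content removed (0.27, adjusted p = 0.012), and it was 0.012 without XWT 1.

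Psmb6, which carries the caspase-like site, stood at 91.7, 113 and 92.4 CPM in XWT and 97.7, 91.1 and 100 CPM in XKO. Psmb7, which carries the trypsin-like site, stood at 48.5, 62.9 and 50.4 CPM in XWT and 55.7, 51.6 and 52.5 CPM in XKO. In both, XWT 2 was the highest of all 6 libraries and the rest overlapped. Their log2 fold changes were -0.040 (95% interval -0.22 to 0.14) and -0.018 (-0.22 to 0.18). Among the XWT libraries the 3 catalytic genes were lowest in XWT 1 and highest in XWT 2. Members without a proteolytic site, such as Psmb4, Psma5, Psmc1 and Psmc5, had this pattern too. Psmb1 and Psmb2, highest in XWT 1, did not.

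The inducible partners that replace these 3 subunits in the immunoproteasome were set beside them. Psmb8, the partner of Psmb5, stood at 84.5, 137 and 123 CPM in XWT and 111, 106 and 110 CPM in XKO. Psmb10, the partner of Psmb7, stood at 101, 130 and 110 CPM in XWT and 109, 111 and 107 CPM in XKO. Both were lowest in XWT 1 and highest in XWT 2, as Psmb5 and Psmb7 were. Psmb9, the partner of Psmb6, fell from 64.9, 70.0 and 65.1 CPM to 56.2, 54.9 and 54.4 CPM, with a log2 fold change of -0.27 ± 0.0658 (SE, edgeR adjusted p = 0.0157). Without XKO 1, 2 or 3 the log2 fold change of Psmb9 was as large (-0.29, -0.27 and -0.26) but no longer called (adjusted p = 0.0705, 0.0962 and 0.0902), and with scaling by library totals it was -0.20 (0.0553). Over all tested genes, those called lower numbered 1145 as reported and 599, 532 and 598 without XKO 1, 2 and 3. With scaling by library totals they numbered 749. Psmb8 was called lower without XWT 1 (-0.25, adjusted p = 0.0371).

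The ratio of each inducible subunit to its partner, taken per length of the principal transcript within a library, needs no scaling between libraries. The log2 ratio of Psmb9 to Psmb6 was -1.26, -1.45 and -1.27 in XWT and -1.56, -1.49 and -1.64 in XKO, with no overlap and a difference of -0.24 (XKO minus XWT). The ratio of Psmb8 to Psmb5 was -0.74, -0.53 and -0.38 in XWT and -0.74, -0.76 and -0.68 in XKO, where XWT 1 lay among the XKO libraries. The ratio of Psmb10 to Psmb7 was 0.88, 0.87 and 0.94 in XWT and 0.79, 0.93 and 0.85 in XKO. In a two-sided exact permutation test the p-values were 0.1, 0.2 and 0.4 in that order (0.3, 0.3 and 0.4 after Benjamini-Hochberg adjustment over the 3 ratios), and 0.1 is the smallest p that 3 against 3 libraries can give.

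The ATPases of the 19S cap, which form the ring that unfolds substrates, held the one called member. Psmc6 (ENSMUSG00000021832, chr14:45329788-45349705, plus strand, overlapping no other gene of the table) stood at 69.1, 56.7 and 69.0 CPM in XWT 1 to 3 and at 74.9, 77.1 and 81.7 CPM in XKO 1 to 3. The groups did not overlap, and XWT 2 lay apart below the other XWT libraries. From 64.9 ± 7.12 to 77.9 ± 3.48 CPM (SD, n = 3 each), the log2 fold change was 0.26 ± 0.0819 (SE, 95% interval 0.086 to 0.44), a 1.20-fold higher level (edgeR adjusted p = 0.0483). The authors' deposited table gives 0.26 with an adjusted p of 0.0386. Over the 16 alternatives the estimate stayed above 0 (0.13 to 0.33) and was called in 10 (adjusted p between 0.0126 and 0.203). The call ended without XWT 2 (0.17, adjusted p = 0.106), without XKO 1, XKO 2 or XKO 3 (0.29, 0.27 and 0.23, adjusted p = 0.107, 0.151 and 0.203), with upper quartile scaling (0.25, adjusted p = 0.0551), and with trends of length and GC content removed, where the estimate was 0.13 (adjusted p = 0.128). Over all tested genes, those called higher numbered 860 as reported and 460 without XWT 2. They numbered 316, 274 and 300 without XKO 1, XKO 2 and XKO 3, 756 with upper quartile scaling, and 975 with trends removed.

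The other 5 ATPase genes did not pass the test. Psmc3 had the lowest estimate of the ring, with 132, 134 and 120 CPM in XWT 1 to 3 and 113, 114 and 114 CPM in XKO 1 to 3. Its groups did not overlap and its XKO libraries were nearly equal, and the log2 fold change was -0.18 ± 0.0646 (SE, edgeR adjusted p = 0.0759). It was called lower with quality weights (adjusted p = 0.0374) and without XWT 3 (-0.23, adjusted p = 0.00843). Of all tested genes 10.2% and 14.8% were lower in these settings. Psmc3 shares its locus with Slc39a13 on the opposite strand, and reads of the pair cannot be told apart if strand was not used in counting. Psmc1, Psmc2, Psmc4 and Psmc5 had log2 fold changes of 0.051, -0.011, -0.056 and -0.0065, and their groups overlapped.

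The other subunits of the cap did not pass the test in any of the 14 genes (1, Psmd9, at an unadjusted p under 0.05), 6 with estimates above 0 and 8 below. Psmd9, which helps to assemble the base of the cap and is no part of the finished particle, had the lowest estimate. It stood at 25.1, 28.0 and 24.2 CPM in XWT and 22.2, 22.3 and 20.9 CPM in XKO. All XKO libraries were below all XWT libraries (-0.24 ± 0.0848, SE, edgeR adjusted p = 0.0755). The call was made without XWT 3 (-0.28, adjusted p = 0.029), where 14.8% of all tested genes were lower. The gene model in the table spans chr5:123169413-123250131 and overlaps Hpd and 2 predicted genes on the opposite strand. Psmd5, another assembly chaperone of the cap, stood at 56.6, 48.8 and 41.4 CPM in XWT and 48.0, 48.3 and 44.9 CPM in XKO (log2 fold change -0.055). The assembly chaperone Psmd10, also called gankyrin, had the highest estimate of the Psmd genes (0.15, adjusted p = 0.207), with 41.2, 43.0 and 40.2 CPM in XWT and 43.2, 44.9 and 49.5 CPM in XKO.

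The scaffold and receptor subunits of the cap had small differences. Psmd2, the large scaffold that contacts the ATPase ring, stood at 296, 318 and 292 CPM in XWT and 311, 312 and 302 CPM in XKO (log2 fold change 0.032), and Psmd1, the other large scaffold, at 160, 132 and 127 CPM in XWT and 139, 145 and 142 CPM in XKO (0.028). Psmd4, a receptor for ubiquitin chains, had a log2 fold change of -0.012. Psmd14, the deubiquitinase that cuts the chain from the substrate, had one of 0.018 and its partner Psmd7 one of -0.00053. The lid subunits Psmd3, Psmd6, Psmd8, Psmd11, Psmd12 and Psmd13 had log2 fold changes of -0.096, 0.10, -0.098, 0.075, -0.033 and -0.13. Of these, Psmd8 and Psmd13 were called lower without XWT 3 (-0.19 and -0.18, adjusted p = 0.0328 and 0.0435), where 14.8% of all tested genes were lower.

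The subunits differed far more from each other in level than between the groups. Per length (FPKM as deposited, per kilobase of the whole gene model), the 14 core members of at least 10 CPM had a median of 42.5 in XWT and lay between 15.7 (Psmb7) and 104 (Psma6). The 20 cap members had a median of 25.9 and lay between 3.55 (Psmd9) and 74.5 (Psmd2). Gene models that include long rarer exons lower such values, so levels were also taken per kilobase of the principal transcript. On that scale the medians in XWT were 98.0 CPM per kb for the core and 47.2 for the cap, the highest members were Psma7 (131), Psmb6 (124) and Psma6 (123), and Psmd9 (9.91) and Psmd5 (11.1), both assembly chaperones, remained the lowest above Psma8 and Psmb11. The core's median level per length was 1.65 ± 0.0437 times that of the cap in XWT and 1.68 ± 0.0272 times in XKO by FPKM (SD, n = 3), and 1.90 ± 0.122 and 1.83 ± 0.0196 times per principal transcript. The cap members here include the assembly chaperones Psmd5, Psmd9 and Psmd10. By FPKM in XWT the ATPases of the cap had a median of 42.5, equal to that of the core, and the other cap members 24.2. Per principal transcript these medians were 62.0 and 45.1 CPM per kb.

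**Figure D3:**
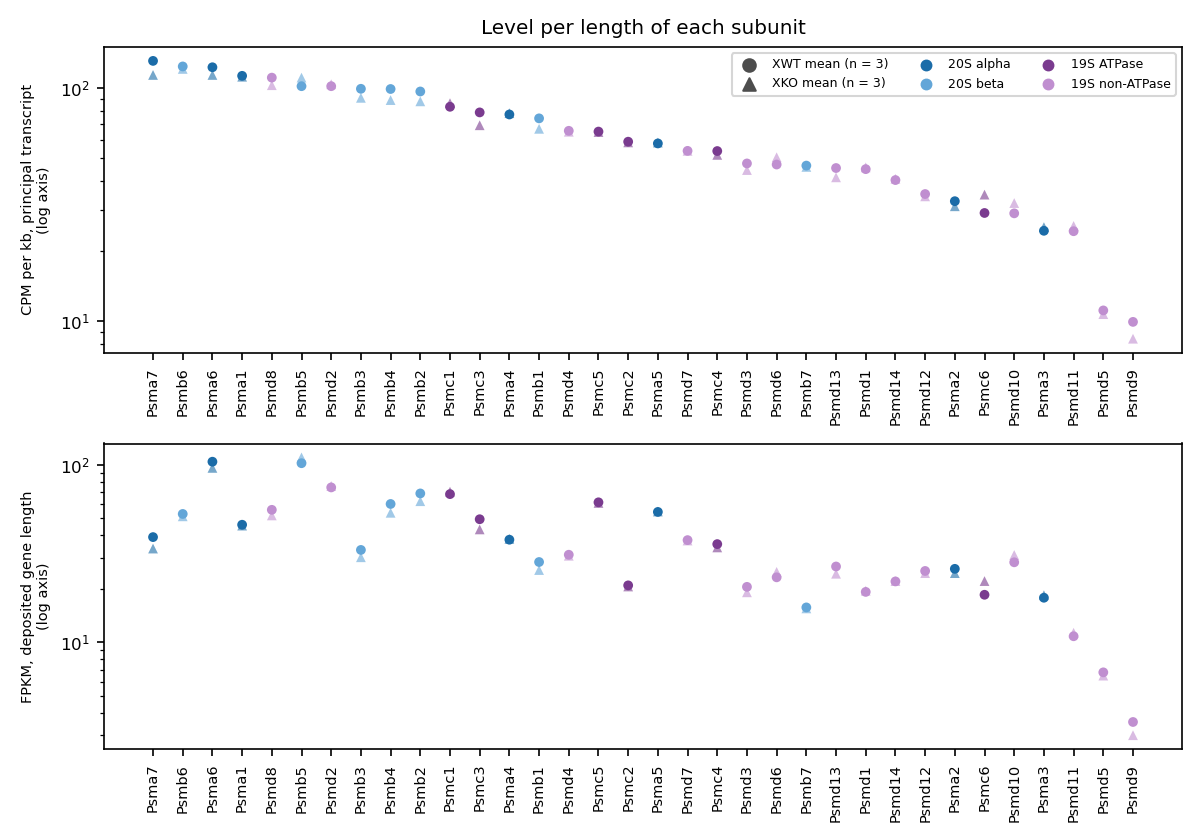
Mean level per length of 34 subunits (log axes) in XWT (circles) and XKO (triangles), ordered by the XWT level per kilobase of the principal transcript (upper panel) and shown in the same order as FPKM of the deposited gene length (lower panel). The symbols of the groups nearly coincide, while levels run from 131 for Psma7 to 9.91 for Psmd9 in the upper panel.

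The spread lay mainly within XWT. For the 34 members of at least 10 CPM, the median SD of log2 CPM was 0.108 among XWT libraries and 0.0370 among XKO libraries, and it was larger in XWT for 31 of 34. Over all tested genes of at least 10 CPM the values were 0.118 and 0.0482, with the larger spread in XWT for 83.8%. The widest members in XWT were Psmb5 (SD 0.247), Psmd5 (0.225), Psmb2 (0.213) and Psmb7 (0.201). Over the 35 tested members, XWT 2 was the highest of the 6 libraries for 16 and XWT 1 for 12, and XWT 3 was the lowest for 17.

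The summed level of the core genes was 1370, 1446 and 1275 CPM in XWT 1 to 3 and 1297, 1294 and 1318 CPM in XKO 1 to 3, so XWT 3 lay below every XKO library and the other XWT libraries above. The cap genes summed to 2003, 1998 and 1849 CPM in XWT and 1927, 1946 and 1940 CPM in XKO, in the same order of groups. Without XWT 3, 8 members were called lower and 1 higher, where 28.9% of all tested genes were called and 14.8% were lower. The 8 were Psma7, Psmb1, Psmb2, Psmb3, Psmc3, Psmd8, Psmd9 and Psmd13.

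In some libraries the deviations moved with the base composition of the transcripts. The members' GC content ran from 40.6% to 57.0% (median 49.5%, and 49.8% over all tested genes). Across 34 members, the deviation of XWT 2 from the mean of the 6 libraries had a Pearson r of 0.54 with GC content, and that of XKO 1, XKO 2 and XKO 3 one of -0.14, -0.37 and -0.33. For XWT 1 and XWT 3 it was 0.0012 and -0.14. Across 9905 genes of at least 5 CPM the r of XWT 2 was 0.53, those of the XKO libraries -0.19, -0.25 and -0.35, and those of XWT 1 and XWT 3 0.0082 and 0.015. Between the log2 fold change and GC content, r was -0.36 across the 34 members and -0.29 across the 9905 genes. These are correlations across genes, which share their library and are not independent replicates. Psmc6, with 41.5% GC, is among the members of lowest GC content, and Psmb5 is the one with the highest.

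**Figure D4:**
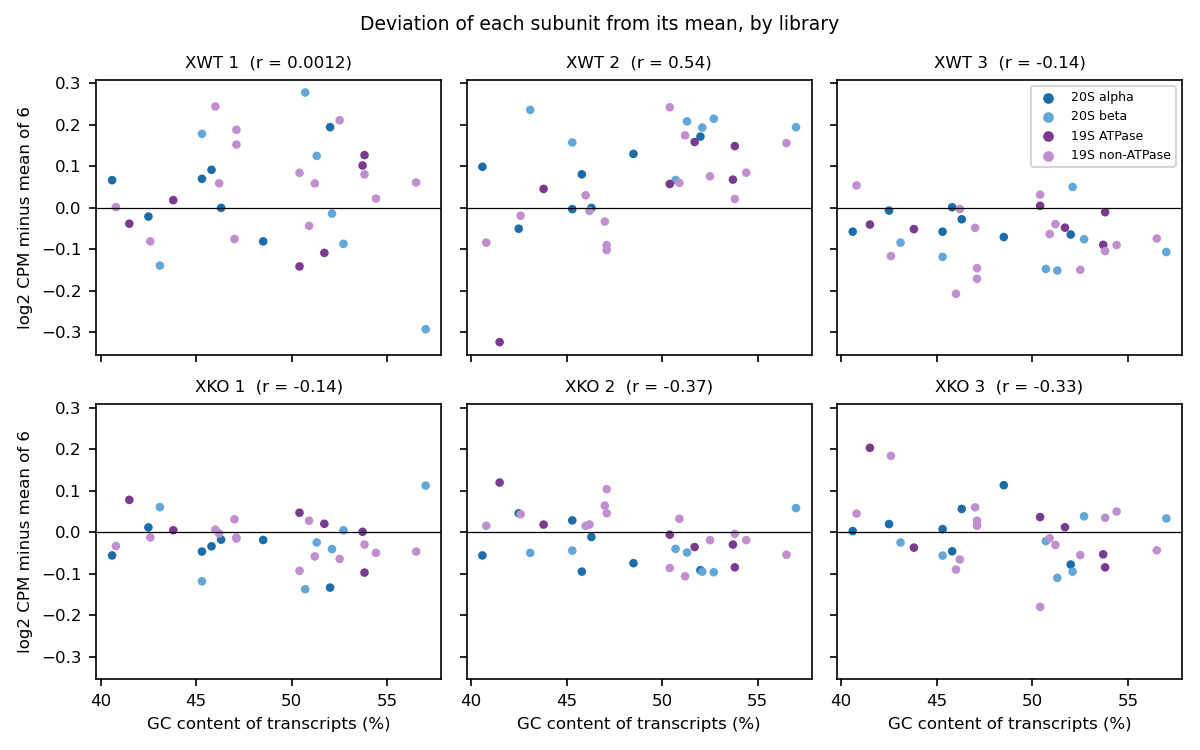
Deviation of 34 subunits from their mean log2 CPM over the 6 libraries (y axis) against the GC content of their transcripts in percent (x axis), 1 panel per library. In XWT 2 the points climb with GC content (r = 0.54), with Psmc6 the lowest point at 41.5% GC, and in XKO 2 and XKO 3 they fall (r = -0.37 and -0.33).

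**Figure D5:**
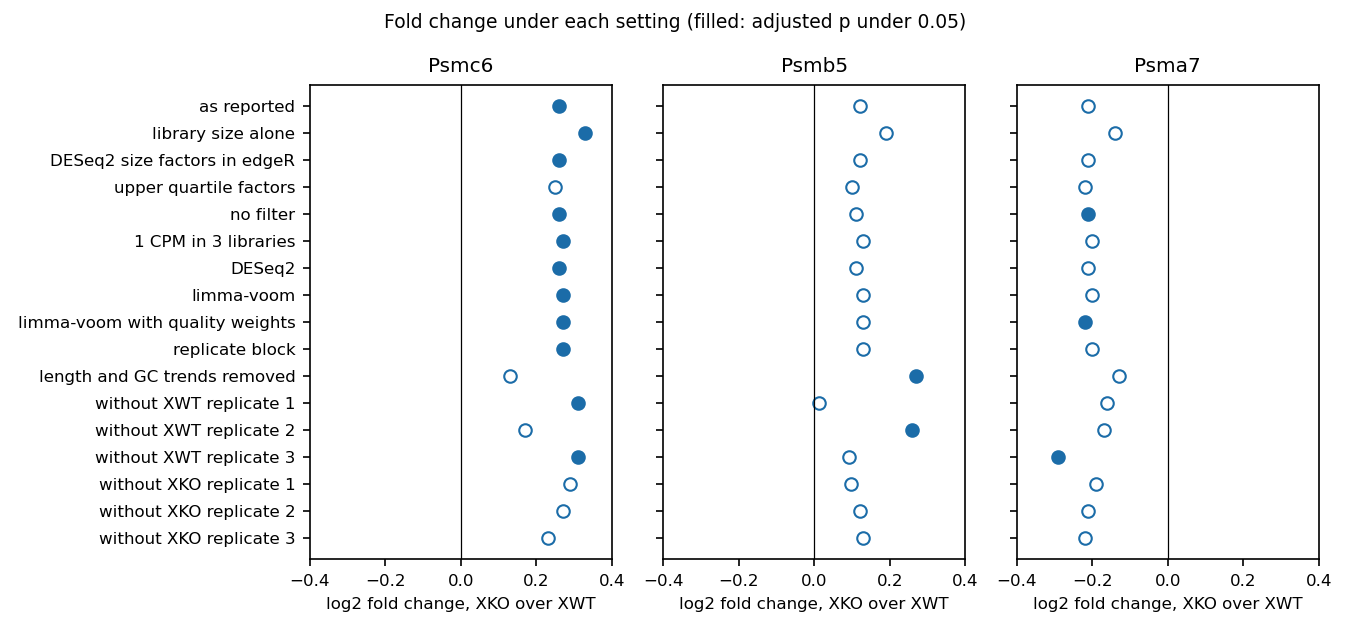
Log2 fold change of XKO over XWT (x axis) for Psmc6, Psmb5 and Psma7 as reported and under each alternative (rows), with filled circles at an adjusted p under 0.05. Psmc6 falls to 0.13 and Psmb5 climbs to 0.27 when trends of length and GC content are removed, and Psma7 reaches -0.29 without XWT 3.

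Among the genes that build, regulate or feed the proteasome, in 7 lists, 2 were called, and DESeq2 and limma-voom gave the same counts in each list. Over all tested genes 14.0% were called by edgeR, and 30.8% had an unadjusted p under 0.05. Of the 5 chaperones that assemble the 20S core, 0 were called by edgeR and also 0 at an unadjusted p under 0.05 (median 0.0087), and the maturation factor Pomp stood at 120, 136 and 125 CPM in XWT and 119, 120 and 117 CPM in XKO, with a log2 fold change of -0.10, next to -0.095 for Psmg1. None of the 6 caps and inhibitors of the 20S core was called, also at an unadjusted p under 0.05 (median -0.0050). Psme1 and Psme2, which form the interferon-induced 11S cap, had log2 fold changes of -0.17 and 0.028, and Psme4, which caps the core without ATP, one of 0.13. The 7 proteins bound to the 19S cap were not called either (median 0.035, 1 at an unadjusted p under 0.05), and Ecpas, a clamp between core and cap, had the highest estimate of 0.16 (adjusted p = 0.145), followed by the ubiquitin receptor Adrm1 with 0.059. Among 9 genes of transcription control 0 were called (median -0.055, 1 at an unadjusted p under 0.05), with Nfe2l1 at 271, 304 and 278 CPM in XWT and 297, 293 and 310 CPM in XKO (0.076, adjusted p = 0.47). Foxo4 and Stat3 had the smallest p of that list (-0.23 and -0.12, adjusted p = 0.0865 and 0.246). Ddi2, the protease that activates NFE2L1 and also a shuttle factor, had a log2 fold change of -0.021, and Ngly1, which removes its sugars, one of 0.025. The 9 genes of the p97 segregase and its cofactors gave 0 calls (median 0.021, 1 at an unadjusted p under 0.05). Ufd1 and Faf2 had the smallest p (0.19 and -0.12, adjusted p = 0.0908 and 0.296), and Vcp, the segregase itself, stood at 411, 414 and 387 CPM in XWT and 420, 425 and 386 CPM in XKO.

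Of 10 shuttle factors that bring substrates to the cap, 1 was called. Zfand5, a zinc finger protein that binds and activates the 26S proteasome, rose from 136, 127 and 140 CPM in XWT 1 to 3 to 190, 186 and 188 CPM in XKO 1 to 3. Every XKO library was above every XWT library, and the log2 fold change was 0.49 ± 0.0636 (SE, edgeR adjusted p = 0.00019). It remained called under all 16 alternatives, and with trends of length and GC content removed it was 0.25 (adjusted p = 0.015). Of 6 genes for ubiquitin and its activating enzymes 1 was called: the polyubiquitin gene Ubb fell from 735, 743 and 607 CPM to 561, 558 and 585 CPM (-0.29 ± 0.0799, SE, edgeR adjusted p = 0.0286). XWT 3 lay nearest to the XKO libraries. The call of Ubb ended without any library but XWT 3 (log2 fold change between -0.31 and -0.24, adjusted p between 0.082 and 0.141) and with trends of length and GC content removed (-0.16, adjusted p = 0.0977). Over all tested genes, those called lower numbered 1145 as reported and 975 and 749 without XWT 1 and XWT 2. They numbered 599, 532 and 598 without XKO 1, XKO 2 and XKO 3, and 1220 with trends removed.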

How the data were processed

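The authors deposited 1 table for the series. Its count columns hold whole reads per Ensembl gene without scaling, per the file headers. Its FPKM columns, per the file headers, were scaled by the authors per kilobase of the gene length they list, and were used only to describe levels. The authors also deposited a log2 fold change and its p-value, raw and adjusted, and scaled group means, a signal not used further. Bowtie 0.12.2 and the builds mm8 and mm10 are named in the submitters' processing notes, with no role. The counter, annotation, strand setting and Cre driver were not given in the sources used here. The table's coordinates equal those of GENCODE M21 (GRCm38) for 35 of the 36 members.

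Counts were tested with edgeR 4.0.16 in R 4.3.3 (filterByExpr, TMM scaling, robust quasi-likelihood fit, 4 residual degrees of freedom) on all genes, XKO against XWT, with Benjamini-Hochberg adjustment and calls under 0.05. Each standard error was taken as the fold change on the log2 scale divided by the root of F. No set test was run. Simulated counts of 14097 genes, with 50 genes each changed 1.25-, 1.5-, 2- and 4-fold, were used to test the scripts. Of the changed genes 42%, 82%, 100% and 100% were recovered, and 14 unchanged genes were called besides. Fewer genes were changed than the 2005 called in the data, so these shares need not hold for the real comparison. Depths of 28354866 to 30891729 counts give the members standard errors of 0.0614 to 0.297. Floors of 3 counts cover counting error only.

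The members and lists were chosen with earlier results of these data known. Named by rule are the catalytic subunits and their partners, called members, the members of highest and lowest fold change or level, those whose call an alternative changes, those under the filter, and from each list the called genes or the 2 with the smallest p. Other members are given in short. Psme2, Nfe2l1, Ddi2, Ngly1, Vcp and Rps27a were added by role after their values were seen. Markers were listed by cell type. GC content is over all GENCODE M21 transcripts of a gene. Principal transcripts are the longest tagged by APPRIS. Alternatives were other scalings, filters, DESeq2 1.42.0, limma 3.58.1 (voom), a replicate block, removal of length and GC trends, and leaving out each library.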

Additional observations from a re-analysis of the deposited data

How the results depend on the processing

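The median log2 fold changes of the members and of the 19S cap moved by more than the spread between libraries only with scaling by library totals, to 0.057 and 0.060. The replicate block kept 1 member higher and 0 lower. Same-numbered libraries did not deviate together (r of -0.0425, -0.0359 and -0.0543 for numbers 1 to 3), so no pairing by number was seen. With 3 libraries per group these values cannot tell whether libraries shared a batch or culture. Members called higher numbered 0 with upper quartile scaling, and 0 to 1 with a library left out. Those called lower numbered 1 with no filter, 2 with quality weights and 0 to 8 with a library left out. In the 20S core 1 was called higher with length and GC trends removed, and 0 to 1 with a library left out, while 1 was called lower with no filter, 1 with quality weights, and 0 to 4 with a library left out. In the 19S cap 0 were called higher with upper quartile scaling and 0 with trends removed, 1 was lower with quality weights, and leaving out a library gave 0 to 1 higher and 0 to 4 lower. Of the immunoproteasome subunits 0 were called lower with scaling by library totals, and 0 to 2 with a library left out. The medians with a library left out lay between -0.052 and -0.0065 for the members, -0.089 and -0.013 for the core, and -0.043 and -0.0022 for the cap. The differences in log2 ratio lay between -0.27 and -0.094 (Psmb8 to Psmb5), -0.30 and -0.20 (Psmb9 to Psmb6) and -0.078 and -0.0058 (Psmb10 to Psmb7) with a library left out. The levels per principal transcript were added after seeing the data. Leaving out any library lowers the degrees of freedom, and an XKO library is one of the tighter group. The cause of these changes was not tested. Differences under about 1.25-fold are at the limit of what these depths and this spread show.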

Other observations

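Rps27a, which encodes ubiquitin joined to a protein of the small ribosomal subunit, had a wide spread between libraries. It stood at 192, 407 and 446 CPM in XWT 1 to 3 and at 367, 183 and 348 CPM in XKO 1 to 3, with a standard error of its log2 fold change of 0.464. XWT 1 and XKO 2 were the low libraries, 1 in each group. The largest standard error of a proteasome subunit of at least 10 CPM was that of Psmb5, 0.101. Ribosomal protein genes have many processed copies, so the values of Rps27a are uncertain.

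The processed pseudogenes of Psmb5, Psmb6, Psmb7, Psmb3 and Psmc3 that the table describes as such took almost no reads, at most 2 in any library. Of the 36 members, 20 overlap no other gene of the table.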
